A study of Arabidopsis thaliana with 36 samples.

Results

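Root and shoot of Arabidopsis thaliana Col-0 were compared at every ribosomal RNA (rRNA) and transfer RNA (tRNA) position listed with a pseudouridine (Ψ) fraction in both tissues. These were 186 of 186 rRNA sites and 348 of 349 tRNA sites, or 534 of 535 in all. The 1 site left out, Tyr-GTA-3-nuclei position 61, had no value in either tissue. Total RNA of 9 tissues was measured by bisulfite-induced deletion sequencing (BID-seq), which makes the reverse transcriptase skip Ψ, so that the share of reads with a gap reports the share of modified molecules. Each tissue had 2 bisulfite-treated and 2 untreated input libraries, 36 in all, of which 8 were of root or shoot. Roots and shoots were collected separately, at the same age, from wild-type plants on Murashige and Skoog plates, with no mutation, transgene or treatment in any group. The 7 other tissues served as background. They were younger seedlings and, from plants in soil, seed, silique, flower, stem and the cauline and rosetta leaves. The values of 2 replicates were pooled into 1 fraction per tissue and site before deposition, with no read numbers, so no difference below has a replicate error, a p-value or a known depth. The tables hold no marker genes, so the tissue labels were not checked against any. A tissue value is also an average over all its cells, so that fewer cells with a modification and a lower fraction in each cell cannot be told apart.

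Pseudouridine is an isomer of uridine in which the base is joined to the sugar through carbon rather than nitrogen, which adds a hydrogen-bond donor and stiffens the backbone. In nuclear-encoded rRNA most Ψ is placed by small nucleolar ribonucleoproteins of the H/ACA class, in which a guide RNA pairs around the target uridine and the dyskerin-type synthase (Cbf5 in yeast) converts it. In tRNA and in the rRNA of chloroplasts and mitochondria, stand-alone synthases recognise their targets without a guide. In yeast, Pus4 forms Ψ55 of the T loop, Pus7 forms Ψ13 of the D arm, Pus1 forms Ψ at 26 to 28, Pus6 at 31, Pus8 and Pus9 at 32, and Pus3 at 38 and 39. Ψ55 helps to hold the T loop against the D loop, and the positions around the anticodon steady the anticodon stem and loop.

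Root was the lower tissue at most sites of both kinds of RNA. For rRNA the 186 fractions had a median of 0.371 in root and 0.502 in shoot, and root was below shoot at 151 sites, above it at 34 and equal at 1. The median of the site differences, root minus shoot, was -0.06, with a range of -0.778 to 0.6. Root was lower by at least 0.1 at 63 rRNA sites (33.9% of 186) and higher by at least 0.1 at 8 (4.3%). Over the 348 tRNA sites the median was 0.738 in root and 0.923 in shoot, with root below shoot at 316 sites and above at 25. The median tRNA difference was -0.135, with a range of -0.959 to 0.404. Root was lower by at least 0.1 at 229 tRNA sites (65.8% of 348) and higher by at least 0.1 at 15 (4.31%). The step of 0.1 is a fixed size and not an error.

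**Figure D1:**
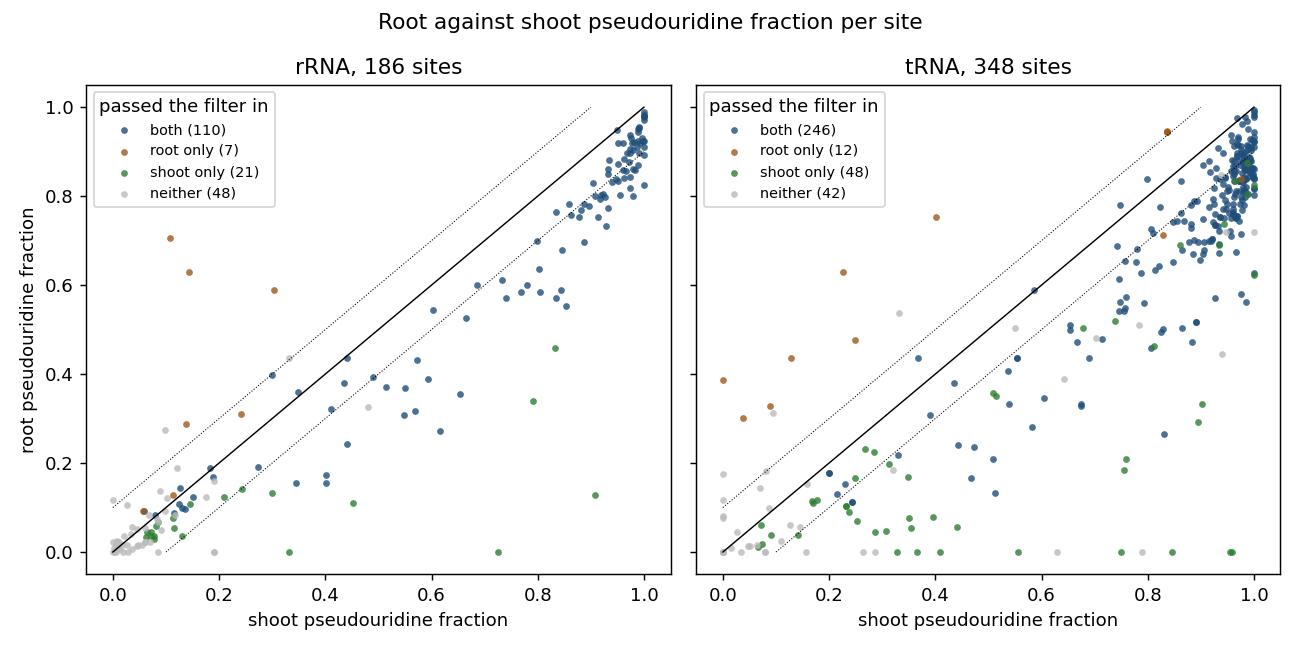
Root pseudouridine fraction (vertical axis, 0 to 1) against shoot fraction (horizontal axis, 0 to 1) for 186 rRNA sites (left) and 348 tRNA sites (right), 1 point per site, coloured by the tissue in which the site passed the authors' filter. The solid line marks equal values and the dotted lines a difference of 0.1, and most points lie below the solid line, 151 of 186 for rRNA and 316 of 348 for tRNA.

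The authors marked each site in each tissue as passed or not passed by a filter based on P values. Among rRNA sites 110 passed in both tissues, 7 in root alone (3.76%), 21 in shoot alone (11.3%) and 48 in neither. Among tRNA sites 246 passed in both, 12 in root alone (3.45%), 48 in shoot alone (13.8%) and 42 in neither. At the sites passed in both, the median was 0.796 in root and 0.918 in shoot for rRNA, and root was below shoot at 104 of 110. For tRNA it was 0.797 in root and 0.959 in shoot, and root was below shoot at 241 of 246. At the 48 rRNA sites passed in neither tissue the median was 0.0225 in root and 0.046 in shoot, with root below shoot at 26 and above at 21. Across sites, root and shoot fractions had a Pearson correlation of 0.94 over 186 rRNA sites and 0.873 over 348 tRNA sites. This is a description, since sites share libraries and are not independent.

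The shift was present at sites that were almost fully modified elsewhere. At the 48 rRNA sites whose median over the 7 other tissues was at least 0.9, the fractions had a median of 0.907 in root and 0.98 in shoot, which left 9.35% of molecules unmodified in root and 2.05% in shoot. Root was below shoot at all 48. At the 159 such tRNA sites the median was 0.849 in root and 0.976 in shoot, with 15.1% unmodified in root and 2.4% in shoot, and root was below shoot at 155. In the 7 other tissues the unmodified share at these sites was 2.2% to 4.1% for rRNA and 2.2% to 5.2% for tRNA. The sites were chosen by the values of these 7 tissues, so their low shares follow in part from that choice. Root lay outside these ranges on the side of more unmodified RNA for both kinds of RNA, and shoot lay just outside the rRNA range on the other side and within the tRNA range. No root value reached 1, with highest values of 0.989 for rRNA and 0.993 for tRNA, whereas shoot was at 1 at 10 rRNA and 19 tRNA sites. All values of a tissue come from the same pooled libraries, so a difference between the tissues and a difference between their libraries cannot be told apart.

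The size of the difference varied with the level a site had elsewhere. For rRNA the median difference was -0.0765 at sites at 0.9 or more in the 7 other tissues, -0.126 at 39 sites between 0.5 and 0.9, -0.084 at 41 sites between 0.1 and 0.5, and -0.01 at 58 sites below 0.1. For tRNA it was -0.129 at sites at 0.9 or more, -0.191 at 100 sites between 0.5 and 0.9, -0.132 at 56 sites between 0.1 and 0.5, and 0 at 33 sites below 0.1. Every one of the 39 rRNA sites of middle level was lower in root, and 96 of the 100 such tRNA sites were. Sites of middle level thus moved most on this scale, while sites with little Ψ elsewhere were split, with root below shoot at 36 of 58 for rRNA and 14 of 33 for tRNA.

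Against the background of all pairs of tissues, the contrast was wide. Root and shoot differed by at least 0.1 in either direction at 71 rRNA sites (38.2%), the second most of 36 pairs after root and seed with 75. They differed at 244 tRNA sites (70.1%), the most of 36 pairs. Root differed from each of the 7 other tissues at 45 to 75 rRNA and 179 to 226 tRNA sites. Shoot differed from each of the 7 others at 12 to 59 rRNA and 52 to 140 tRNA sites, and was nearest to seedling, with 12 and 52. These pairs share the root or the shoot values and are not independent of each other. Over all sites, with ties counted, root was the lowest of the 9 tissues at 96 of 186 rRNA and 216 of 348 tRNA sites. Shoot was the highest at 63 rRNA and 105 tRNA sites, also with ties counted, such as several tissues at 1.

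**Figure D2:**
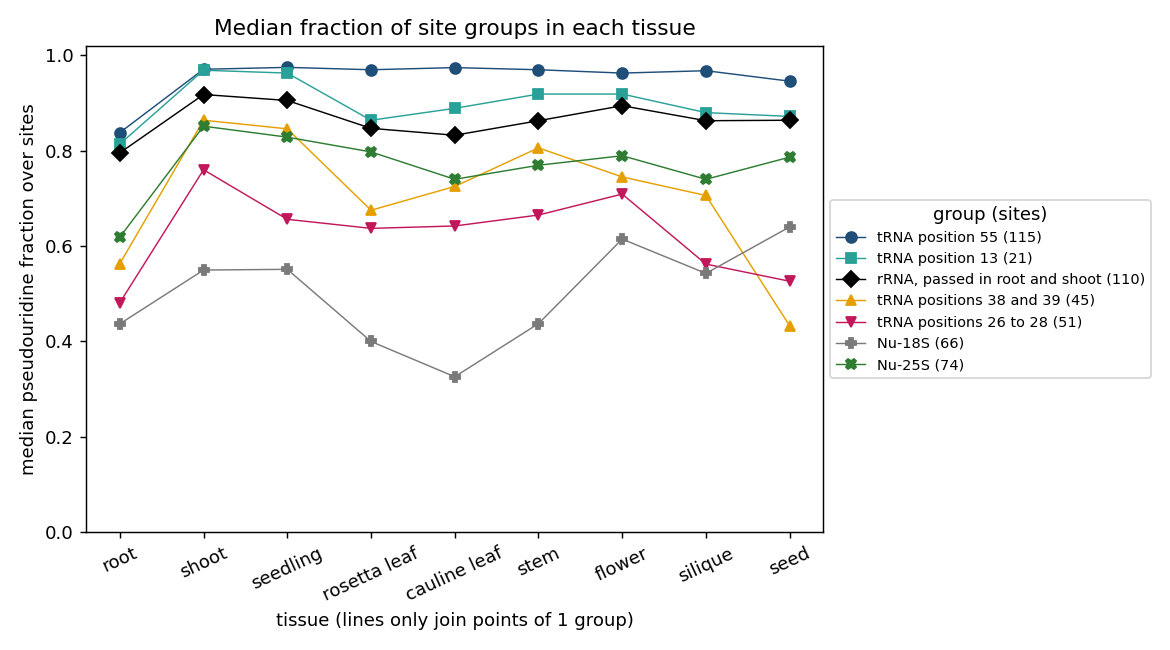
Median pseudouridine fraction over the sites of 7 groups (vertical axis, 0 to 1) in each of 9 tissues (horizontal axis), with the number of sites in the legend and lines that only join the points of a group. Root is the lowest point of the position 55, position 13, positions 26 to 28, Nu-25S and passed rRNA groups, seed is below root for positions 38 and 39, and both leaf types are below root for Nu-18S.

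The nuclear-encoded rRNAs carried most of the rRNA sites. In Nu-18S, the RNA of the small cytosolic subunit, the median over 66 sites was 0.437 in root and 0.55 in shoot, and 22 sites were lower and 5 higher in root by at least 0.1. In Nu-25S, the RNA of the large cytosolic subunit, the median over 74 sites was 0.619 in root and 0.852 in shoot, with 28 sites lower and 1 higher. The lower sites made up 33.3% of Nu-18S and 37.8% of Nu-25S, near the 33.9% of all rRNA sites. In Nu-5.8S, which pairs with 25S, only 1 of 6 sites was lower by at least 0.1, at position 22, where root had 0.584 and shoot 0.769. The organelle rRNAs shared the direction. In Mt-26S all 10 sites were lower in root, by a median of -0.0665, with 4 past 0.1. In Pt-23S 12 of 16 sites were lower, by a median of -0.038, with 5 past 0.1, or 31.2%. Pt-4.5S, a fragment of the chloroplast large-subunit RNA, was split at 2 and 2 of 4 sites.

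**Figure D3:**
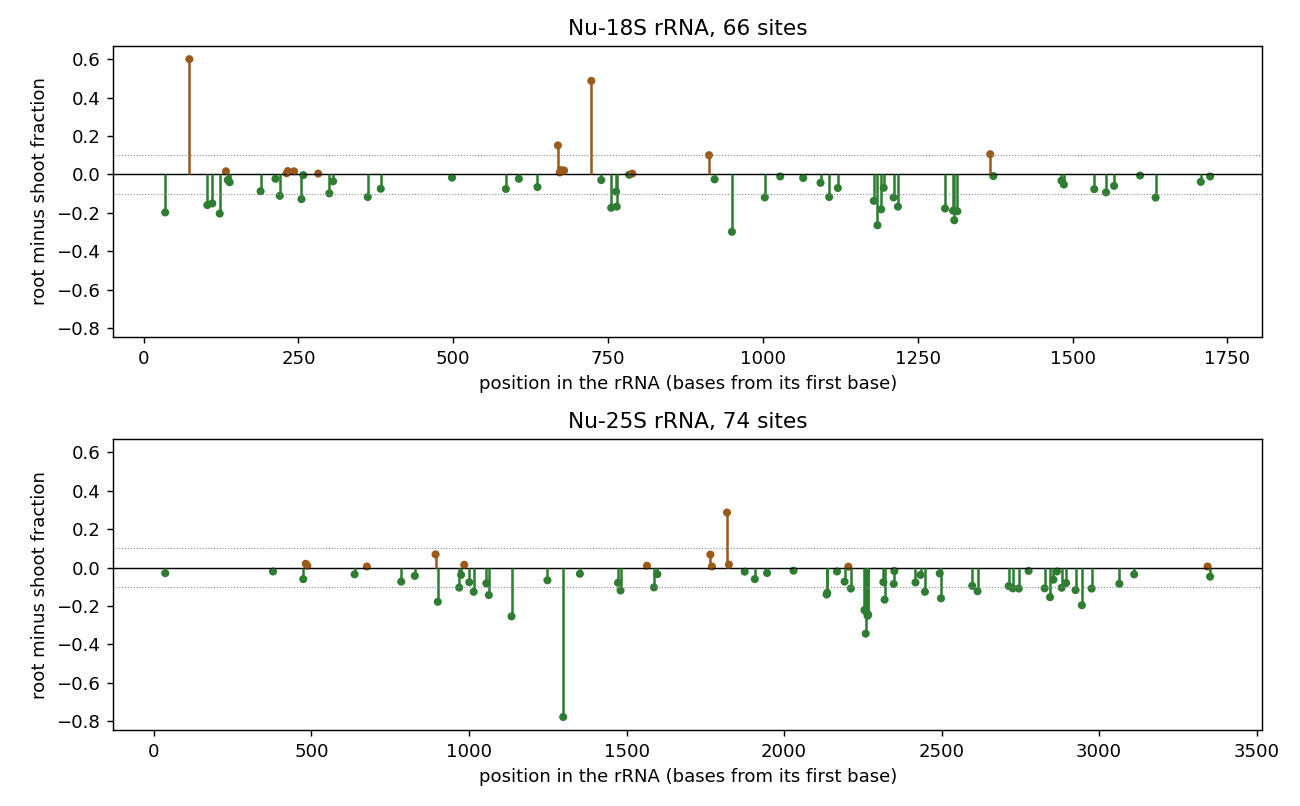
Root minus shoot pseudouridine fraction (vertical axis) along Nu-18S (top, 66 sites) and Nu-25S (bottom, 74 sites), with the position in the rRNA in bases on the horizontal axis, 1 line per site, brown where root was higher and green where it was lower, and dotted lines at a difference of 0.1. The tallest brown lines are Nu-18S Ψ74 at 0.6 and Ψ723 at 0.487, and the longest green line is Nu-25S Ψ1299 at -0.778.

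A window over the loop of helix 69 of the large-subunit rRNA held 11 listed sites over 3 genomes, and root was lower at each. This hairpin reaches the decoding centre at the interface of the subunits and touches tRNA, and its loop is pseudouridylated in bacteria, plants and animals. The loop and its flanks are shown for the 3 genomes because they place 11 listed sites in nearly the same sequence. Sites were counted from 1 base before to 11 bases after the first base of the loop motif. This window was set by base number and not by the ends of the helix. Listed sites are in capitals, which include Nu-25S Ψ2267, 1 base beyond that window and counted with the rest of Nu-25S. The sequences are from RefSeq, build TAIR10.1, at chr2:8378-8408 on the plus strand, chrPt:106606-106636 on the plus strand and chrMt:141724-141754 on the minus strand, with mitochondrial coordinates of that assembly and not of the tables.
Nu-25S helix 69: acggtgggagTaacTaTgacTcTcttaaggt
Pt-23S helix 69: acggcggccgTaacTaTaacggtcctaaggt
Mt-26S helix 69: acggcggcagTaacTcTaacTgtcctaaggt
Of 31 aligned bases, Pt-23S and Mt-26S share 28, Nu-25S and Mt-26S 25, and Nu-25S and Pt-23S 24. The mitochondrial loop differs from the motif TAACTAT used for the other 2 loops, and was found with TAACTCT after that search had missed it.

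All 11 sites of the helix 69 window were lower in root by more than 0.1, against 33.9% of all rRNA sites. In the rest of Nu-25S 24 of 70 sites were lower by at least 0.1, Ψ2267 among them. It was 2 of 13 in the rest of Pt-23S and 0 of 6 in the rest of Mt-26S. In Nu-25S, Ψ2255 was 0.584 in root and 0.805 in shoot, Ψ2259 0.272 in root and 0.616 in shoot, Ψ2261 0.172 in root and 0.402 in shoot, and Ψ2265 0.318 in root and 0.569 in shoot. In Pt-23S, Ψ1926 was 0.111 in root and 0.453 in shoot, Ψ1930 0.339 in root and 0.792 in shoot, and Ψ1932 0.612 in root and 0.733 in shoot. In Mt-26S, Ψ1536 was 0.458 in root and 0.832 in shoot, Ψ1540 0.326 in root and 0.48 in shoot, Ψ1542 0.68 in root and 0.845 in shoot, and Ψ1546 0.554 in root and 0.853 in shoot. The median difference over the 11 sites was -0.251, with a range of -0.453 to -0.121. Over the remaining sites of the same RNAs it was -0.073 at 70 sites of Nu-25S, -0.032 at 13 of Pt-23S and -0.035 at 6 of Mt-26S. The levels differed too, with a median of 0.339 in root and 0.733 in shoot over the 11 sites and 0.093 in root and 0.088 in shoot over the rest of Pt-23S. Among the 33 rRNA sites of any region at 0.5 to 0.9 in shoot, the median difference was -0.168 and 84.8% were lower in root by at least 0.1. The part of level in the helix 69 values was not tested. Against the other tissues the sites varied within each genome. Root lay below all 7 at Nu-25S Ψ2259 (0.573 to 0.792 in the 7) and Ψ2261 (0.358 to 0.541), at Pt-23S Ψ1926 (0.162 to 0.401) and Ψ1930 (0.353 to 0.758), and at Mt-26S Ψ1546 (0.724 to 0.881). At the other 6 sites root fell within their range. Of the 63 rRNA sites of any region lower in root by at least 0.1, root lay below all 7 at 46. Pt-23S Ψ1926 and Ψ1930 and Mt-26S Ψ1536 passed the filter in shoot alone, and Mt-26S Ψ1540 in neither tissue.

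Nu-25S Ψ2267 was 0.156 in root and 0.401 in shoot, and here shoot was the tissue apart, with 0.086 to 0.304 in the 7 others. The 6 neighbouring listed sites from Ψ2212 to Ψ2267 of Nu-25S were all lower in root by at least 0.1. The same held in Nu-18S for 6 neighbouring sites from Ψ1211 to Ψ1314 and for 3 from Ψ1179 to Ψ1191, with further runs of 3 at Ψ103 to Ψ123 of Nu-18S and Ψ2925 to Ψ2976 of Nu-25S. In the organelles such runs were the 4 helix 69 sites of Mt-26S and 4 sites from Ψ948 to Ψ1932 of Pt-23S. These runs of 3 or more sites were picked after the values were seen. In the Nu-18S run of 6 the median was 0.634 in root and 0.814 in shoot. It includes Ψ1309, with 0.309 in root and 0.548 in shoot, against 0.641 to 0.698 in the 7 other tissues. Between Ψ1191 and Ψ1211, the ends of 2 of these runs, lies Ψ1195 of helix 31, part of the decoding region that touches tRNA in the P site, with 0.765 in root and 0.835 in shoot. Its difference of -0.07 was close to the median of all rRNA sites, at -0.06. It was smaller than the median of -0.168 over the 33 rRNA sites at 0.5 to 0.9 in shoot.

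The other wide gaps at nuclear rRNA sites passed in both tissues were spread over both subunits. Nu-18S Ψ950 was 0.355 in root and 0.654 in shoot, with shoot above and root below all 7 other tissues (0.436 to 0.562). Nu-18S Ψ1185 was 0.57 in root and 0.835 in shoot, and the 7 others had 0.815 to 0.897. Nu-25S Ψ1135 was 0.59 in root and 0.844 in shoot, with 0.778 to 0.919 in the others. At the last 2 sites root alone was low.

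Nu-25S Ψ1299 had the widest difference of any rRNA site, at 0.129 in root and 0.907 in shoot, and it passed the filter in shoot and not in root. The 7 other tissues had 0.718 to 0.879, so that root alone was low. Pt-23S Ψ948, which also passed in shoot alone, was listed at 0 in root and 0.725 in shoot. There the other tissues were scattered, with 0 in silique, 0.21 in rosetta leaf, 0.214 in flower and 0.757 in stem. Without read numbers a 0 carries no upper limit, and the cover of chloroplast RNA in root is unknown. Both sites are shown with 12 bases on either side because they carry the widest rRNA gaps, with listed sites in capitals (RefSeq, TAIR10.1, chr2:7420-7444 and chrPt:105626-105650, both on the plus strand).
Nu-25S 1299: tcacctgccgaaTcaactagccccg
Pt-23S 948: atgaccTcaaaaTaactggggtcaa

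A small set of nuclear rRNA sites ran the other way. Nu-18S Ψ74 was 0.707 in root and 0.107 in shoot, Nu-18S Ψ723 0.63 in root and 0.143 in shoot, Nu-25S Ψ1819 0.59 in root and 0.303 in shoot, and Nu-18S Ψ669 0.288 in root and 0.137 in shoot. All 4 passed the filter in root and not in shoot. They are shown because they are the rRNA sites with the widest difference among those passed in root alone, and listed sites are in capitals (RefSeq, TAIR10.1, plus strand, chr2:3767-3791, chr2:4416-4440, chr2:7940-7964 and chr2:4362-4386).
Nu-18S 74: agtatgaacgaaTtcagactgtgaa
Nu-18S 723: tcctggtcttaaTtggccgggtcgt
Nu-25S 1819: cggaggaccgagTgccgcTcacgcc
Nu-18S 669: ccggtccgccttTggTgTgcatTgg
Ψ74 and Ψ723 each stand after 2 A and before another T, and a gap in such a pair of T can belong to either base. The same limit holds for every site in a run of T, 70 rRNA and 156 tRNA sites where the sequence was known. Among them are Nu-18S Ψ669, Ψ913 and Ψ950, Nu-25S Ψ1135, and His-GTG-1-nuclei position 33.

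The other tissues fell on both sides of root at the rRNA sites that were higher in root by at least 0.1. At Ψ74 flower had 0.884, silique 0.96 and seed 0.779, above root, while seedling had 0.03, rosetta leaf 0.04, cauline leaf 0.013 and stem 0.298. At Ψ723 flower, silique and seed had 0.765, 0.853 and 0.753, seedling and both leaf types were listed at 0, and stem had 0.207. Of the 7 other tissues only flower and silique, and not seed, passed the filter at Ψ74 and Ψ723. At Nu-25S Ψ1819 flower, silique and seed had 0.651, 0.756 and 0.751, stem 0.464, and seedling and both leaf types 0.106 to 0.202. At Ψ669 flower was just below root, with 0.27, and silique and seed above it, with 0.334 and 0.377. Nu-18S Ψ1367 had the same arrangement with a smaller gap, at 0.437 in root and 0.332 in shoot, 0.743 to 0.986 in flower, silique and seed, and 0.132 to 0.35 in the other 4 tissues, but it passed in neither root nor shoot. Of the 8 rRNA sites higher in root by at least 0.1, 6 had flower, silique and seed all above root, whether these passed or not. At none of the 8 was root above all 7 other tissues. Over all 186 rRNA sites, with ties counted, root was the lowest tissue at 96. At those 96, flower, silique and seed were thus at or above root as well. Whether the arrangement is particular to the sites higher in root was not tested.

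Among rRNA sites passed in both tissues only 6 were higher in root. The widest was Nu-18S Ψ913 of helix 22, in a region tied to initiation, with 0.399 in root and 0.299 in shoot, and 0.2 to 0.472 in the 7 others. The remaining 5 differed by at most 0.034. They were Pt-23S Ψ374, with 0.093 in root and 0.059 in shoot, Pt-23S Ψ2700, with 0.143 in root and 0.127 in shoot, Nu-25S Ψ1565, with 0.359 in root and 0.349 in shoot, Nu-25S Ψ676, with 0.188 in root and 0.182 in shoot, and Nu-18S Ψ789, with 0.083 in root and 0.079 in shoot. All but Ψ913 and Ψ1565 lay below 0.2 in both tissues. At Ψ1565 root and shoot were both below seedling, stem, flower, silique and both leaf types (0.389 to 0.839) and above seed (0.112).

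The organelle sites named in the study were near full in both tissues. Pt-23S Ψ2623, the counterpart of a site made by the chloroplast synthase SVR1 in rice, was 0.919 in root and 0.961 in shoot, with 0.954 to 0.972 in the 7 others. Mt-26S Ψ2217, whose rice counterpart the paper also assigns to SVR1, was 0.919 in root and 0.952 in shoot. The 7 others had 0.963 to 0.996 there. Root was the lowest tissue at both, and the differences from shoot were -0.042 and -0.033. Mt-26S Ψ2192 had the smallest gap of that RNA, at 0.949 in root and 0.95 in shoot. The Mt-26S numbers used here are table positions less a fixed offset, with Ψ2217 at table position 2267.

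**Figure D4:**
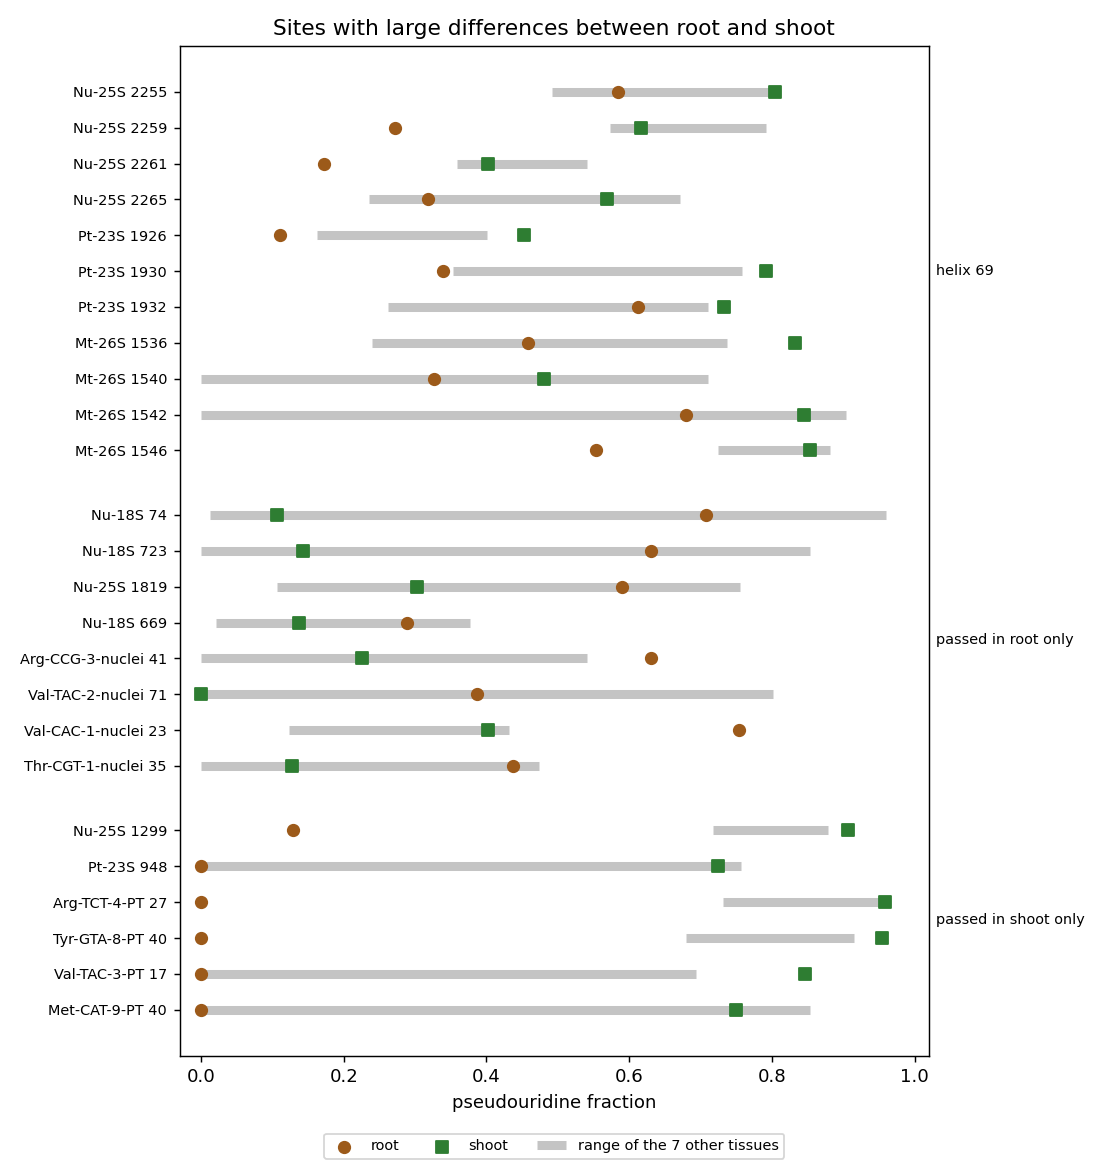
Pseudouridine fraction (horizontal axis, 0 to 1) in root (brown circles) and shoot (green squares), with the range over the 7 other tissues as grey bars. Drawn are the 11 sites of the helix 69 window and the 8 sites named among those passed in root alone. Also drawn are 6 of the 8 named among those passed in shoot alone, the rest being helix 69 sites. Root lies left of shoot at every helix 69 site and right of it at every site passed in root alone that is drawn.

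In tRNA the lower values in root were found in all genomes. The median was 0.733 in root and 0.919 in shoot over 235 nuclear sites, 0.691 in root and 0.915 in shoot over 67 chloroplast sites, and 0.864 in root and 0.976 in shoot over 7 mitochondrial sites. It was 0.812 in root and 0.94 in shoot over 39 sites of names that the tables assign jointly to nucleus and mitochondrion. The median differences were -0.138, -0.137, -0.117 and -0.117. The 348 sites belong to 143 tRNA names, and near-identical tRNAs share reads, so the sites are not independent. At 115 of the 143 names every listed site was lower in root, and at 23 names at least 1 site was higher.

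Position 55 was lower in root at each of the 115 sites assigned to it, out of 302 of 348 tRNA sites that could be given a standard position. It is the second T of the T-loop motif that nearly all tRNAs share. The median was 0.838 in root and 0.971 in shoot, the median difference -0.138, and the range -0.292 to -0.034. The 7 other tissues had medians of 0.946 to 0.975. By genome the median difference was -0.147 over 71 nuclear sites, -0.135 over 27 chloroplast sites, -0.129 over 13 sites of the joint label and -0.125 over 4 mitochondrial sites. The widest gap was Ala-TGC-3-PT position 55, with 0.675 in root and 0.967 in shoot, and the narrowest Cys-GCA-5-nuclei position 54 of the table, with 0.924 in root and 0.958 in shoot.

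Position 13 of the D arm, listed in nuclear tRNAs alone, was lower in root at all 21 sites, with medians of 0.814 in root and 0.969 in shoot. The difference ran from -0.396 to -0.076. Its widest gap was in Val-TAC-2-nuclei, with 0.579 in root and 0.975 in shoot. There 6 of the 7 other tissues had 0.858 to 0.962 and seed was listed at 0, but none of the 7 passed the filter. The narrowest was Gln-CTG-1-nuclei, with 0.912 in root and 0.988 in shoot.

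**Figure D5:**
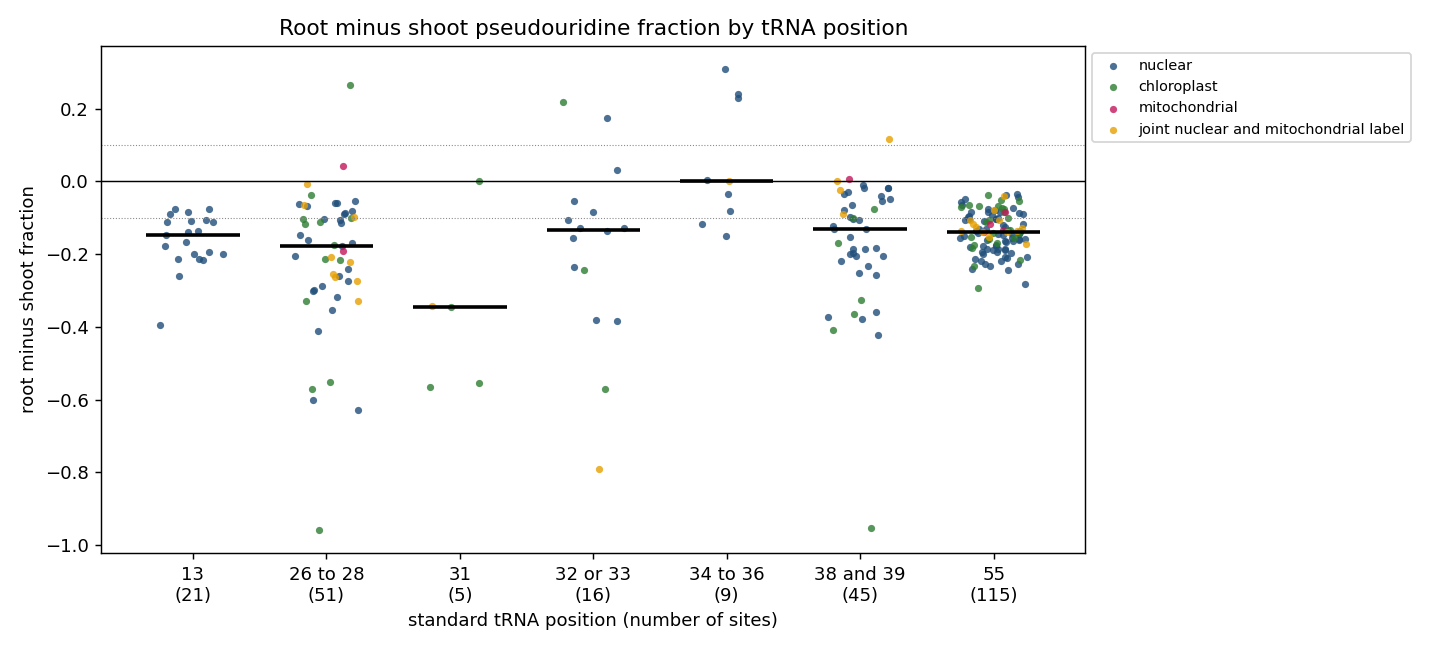
Root minus shoot pseudouridine fraction (vertical axis) of tRNA sites grouped by standard tRNA position (horizontal axis, with the number of sites), 1 point per site coloured by genome, with the median of each group as a black bar and dotted lines at a difference of 0.1. All 115 sites assigned to position 55 and all 21 of position 13 lie below 0, and positions 34 to 36 are the only group with a median of 0.

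Sites in and next to the anticodon stem and loop varied more. At positions 26 to 28 the median over 51 sites was 0.481 in root and 0.76 in shoot, with a median difference of -0.179. At positions 38 and 39 it was 0.563 in root and 0.864 in shoot over 45 sites, with a median difference of -0.132. Seed was lower than root at 38 and 39, with a median of 0.433. The nuclear alanine tRNAs had the widest 38 gaps among sites passed in both tissues. Ala-AGC-1-nuclei was 0.563 in root and 0.985 in shoot, with 0.807 to 1 in the 7 others, and Ala-TGC-1-nuclei was 0.628 in root and 1 in shoot, with 0.891 to 1 in the 7 others. Root alone was low at both. At position 31 the difference was -0.345 in the middle of 5 sites, which included Trp-CCA-3-PT, with 0.329 in root and 0.674 in shoot. Trp-CCA-3-nuclei-Mt had almost the same values, 0.333 in root and 0.675 in shoot, and may hold the same reads.

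Single tRNAs showed how unevenly neighbouring sites moved. Mature sequences without the added 3′ end are shown for 4 chloroplast tRNAs and 3 nuclear tRNAs that hold wide gaps, with listed sites in capitals (RefSeq, TAIR10.1, genes ArthCt093, ArthCt096, ArthCt103, ArthCt097, AT1G21420, AT2G03660 and AT4G16235). They lie at chrPt:9590-9661 on the plus strand, chrPt:30323-30406, chrPt:51199-51871 and chrPt:30466-30538 on the minus strand, chr1:7499733-7499804 and chr2:1113984-1114055 on the minus strand, and chr4:9191576-9191648 on the plus strand. Gln-TTG-1-nuclei has 6 identical genes, of which the first is given. The gene of Val-TAC-3-PT is split by an intron, which is not shown.
Arg-TCT-4-PT: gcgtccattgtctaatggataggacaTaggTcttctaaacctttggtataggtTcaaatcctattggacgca
Tyr-GTA-8-PT: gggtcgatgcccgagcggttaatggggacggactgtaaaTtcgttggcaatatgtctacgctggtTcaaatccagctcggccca
Val-TAC-3-PT: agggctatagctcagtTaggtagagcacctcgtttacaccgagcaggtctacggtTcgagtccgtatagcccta
Glu-TTC-5-PT: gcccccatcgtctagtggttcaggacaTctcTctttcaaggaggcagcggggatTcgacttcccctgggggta
Gln-TTG-1-nuclei: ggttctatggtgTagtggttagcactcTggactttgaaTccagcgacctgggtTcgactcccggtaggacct
Thr-CGT-2-nuclei: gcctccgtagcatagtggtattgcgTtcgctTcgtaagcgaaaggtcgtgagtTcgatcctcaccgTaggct
Val-TAC-2-nuclei: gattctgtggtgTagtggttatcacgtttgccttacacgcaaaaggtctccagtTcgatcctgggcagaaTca

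In Arg-TCT-4-PT, position 27 was listed at 0 in root and 0.959 in shoot and position 31 at 0 in root and 0.555 in shoot, whereas its T-loop site was 0.882 in root and 0.959 in shoot. The 7 other tissues had 0.731 to 0.965 at position 27. In Tyr-GTA-8-PT, table position 40 (standard 39) was listed at 0 in root and 0.954 in shoot, and its T-loop site was 0.951 in root and 0.988 in shoot. In Val-TAC-3-PT, position 17 of the D loop was listed at 0 in root and 0.846 in shoot, and its T-loop site was 0.837 in root and 0.972 in shoot. At that D-loop site shoot was above all 7 other tissues, which had 0 to 0.694. Met-CAT-9-PT position 40 was listed at 0 in root, 0.75 in shoot and 0 in seed. All 4 sites passed in shoot alone.

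Chloroplast tRNA sites passed in shoot alone at 21 of 67, or 31.3%, against 13.8% of all tRNA sites and 11.5% of the 235 nuclear ones. Of the 16 tRNA sites at 0 in root and above 0 in shoot, 8 were in chloroplast tRNAs, with shoot values of 0.327 to 0.959. The 6 in nuclear tRNAs had shoot values of 0.034 to 0.63. Fewer reads of chloroplast tRNA in root would also move a site to not passed or to 0, and their number is not given, so its part was not tested. At the 39 chloroplast sites passed in both tissues, the median was 0.844 in root and 0.976 in shoot, with root below shoot at 39.

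Glu-TTC-5-PT table position 32 (standard 31) was the widest tRNA gap among sites passed in both tissues, with 0.266 in root and 0.831 in shoot, and 0.558 to 0.882 in the 7 others. This tRNA also supplies glutamate for chlorophyll synthesis in plastids. Its table position 28 was 0.039 in root and 0.142 in shoot, and its T-loop site was 0.916 in root and 0.986 in shoot. In Gln-TTG-1-nuclei, position 28 was 0.472 in root and 0.884 in shoot, while position 39 was 0.968 in root and 0.986 in shoot. Its position 13 was 0.838 in root and 0.985 in shoot, and its T-loop site 0.783 in root and 0.925 in shoot. Thus 2 sites on the same anticodon stem differed by -0.412 and by -0.018.

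In Thr-CGT-2-nuclei, table position 32 was 0.133 in root and 0.513 in shoot, and 0.317 to 0.664 in the 7 others. It is the second of 2 adjacent T, standard positions 32 and 33, so the gap can belong to either. Its table position 26 was 0.045 in root and 0.286 in shoot, and its T-loop site 0.745 in root and 0.972 in shoot. Table position 67, in the acceptor stem, was 0.897 in root and 0.976 in shoot. Over the 16 tRNA sites at standard 32 or 33 the median was 0.154 in root and 0.381 in shoot. The nuclear Trp-CCA-1 and Trp-CCA-2 names had identical values at position 70 of the acceptor stem, 0.516 in root and 0.891 in shoot, and count as 1 observation. There 6 of the 7 other tissues had 0.832 to 0.894 and seed had 0.232.

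The tRNA sites higher in root by at least 0.1 numbered 15, and at 5 of them root was above all 7 other tissues. Val-CAC-1-nuclei position 23 of the D stem was 0.754 in root and 0.402 in shoot, above the 0.123 to 0.432 of the 7 other tissues. Arg-CCG-3-nuclei position 41 was 0.63 in root and 0.226 in shoot, also above all 7, which had 0 to 0.541. Ala-TGC-3-PT position 26 was 0.301 in root and 0.037 in shoot, with at most 0.036 in the 7 others. Val-TAC-2-nuclei position 71 was 0.387 in root and listed at 0 in shoot, and only seed was higher, at 0.801. All 4 passed in root and not in shoot. Val-CAC-1-nuclei position 23 and Arg-CCG-3-nuclei position 41 also passed in none of the 7 others. The 15 sites were picked for a high root value, so the place of root among the tissues is a description. The same Val-TAC-2-nuclei tRNA was lower in root at position 13, as given above, and at its T-loop site, with 0.838 in root and 1 in shoot. Tyr-GTA-2-b-nuclei, Tyr-GTA-2-d-nuclei and Tyr-GTA-2-g-nuclei, near-identical names that count as 1 observation, had 0.944, 0.945 and 0.946 in root and 0.836 in shoot at table position 56. They passed in root alone and were given no standard position, so the counts by position, that of 55 among them, leave them out.

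Position 36, the third base of the anticodon, was the 1 standard position with at least 5 sites whose median difference was above 0, at 0.228. Of its 5 sites, 3 were higher in root by at least 0.1, against 4.31% of all tRNA sites. Thr-CGT-1-nuclei table position 35 was 0.437 in root and 0.128 in shoot, Arg-CCT-1-nuclei position 36 was 0.477 in root and 0.249 in shoot, and Arg-TCT-2-nuclei position 36 was 0.329 in root and 0.088 in shoot. All 3 passed in root alone, where they were high, so the count is a description. Over the 5 sites the median was 0.437 in root, 0.128 in shoot, 0.473 in silique, 0.27 in flower and at most 0.079 elsewhere. Silique was above root at the Thr-CGT-1-nuclei site, and flower and silique were at the Arg-CCT-1-nuclei site. At the Arg-TCT-2-nuclei site root was above all 7. Lys-CTT-1-nuclei position 36, which passed in both, was 0.589 in root and 0.586 in shoot, and the 7 other tissues had 0 to 0.312. Both tissues were thus above all the others there, none of which passed. That lysine site is the second of 2 adjacent T of the anticodon, so its gap can belong to either base. Met-CAT-5-nuclei-Mt was at 0 in both. In Thr-CGT-1-nuclei the neighbouring sites ran the other way. They had 0.236 in root and 0.472 in shoot at table position 32, and 0.047 in root and 0.308 in shoot at table position 26.

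Among tRNA sites passed in both tissues, 5 of 246 were higher in root and none by 0.1. The widest was Gln-CTG-1-nuclei table position 65, with 0.436 in root and 0.368 in shoot. The mitochondrial His-GTG-3-MT was 0.839 in root and 0.798 in shoot at table position 29 and 0.975 in root and 0.968 in shoot at table position 40. His-GTG-1-nuclei position 33, next to the anticodon, was 0.78 in root and 0.748 in shoot, whereas His-GTG-2-nuclei position 33 was 0.742 in root and 0.847 in shoot. The second was picked after its values were seen, and the related names lay on opposite sides at that site.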

How the data were processed

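The authors made single-read BID-seq libraries from total RNA, detected gaps with their published pipeline against TAIR10, summed gapped and ungapped reads over the replicates of a tissue, and calibrated the gap ratio to a Ψ stoichiometry. The deposited tables give this fraction (0 to 1) and a passed flag per tissue. Filter thresholds and read depth are not given in the sources used here. Plants were grown under long days, and the labels do not say whether replicates came from separate plants. Root minus shoot was taken at each site with both values, and counted at a difference of 0.1 (python 3.11.15, pandas 2.3.3, numpy 2.4.6), with no test. The counting was tested on simulated data. Columns left unused numbered 0. All 147 nuclear, 20 of 28 chloroplast and 10 of 11 mitochondrial rRNA sites were placed on a T of TAIR10.1, and 138 of 143 tRNA names matched annotated genes, which gave 302 of 348 sites a standard position. Sites named were the 8 widest in each direction among those passed in both tissues, the 4 widest passed in 1 tissue, helix 69, sites the study names, and class extremes. Neighbouring sites of the same tRNA and the sites higher in root by 0.1 were added after their values were seen. Sites, members and lists were chosen with earlier results of these data known. Alternatives are given in the closing section.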

Additional observations from a re-analysis of the deposited data

How the results depend on the processing

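No paired analysis was possible because the replicates of a tissue were pooled into 1 deposited value, and no replicate could be left out for the same reason. All 16 alternative medians kept the sign. Counts of lower sites in tRNA stayed within 1.5 times under every alternative other than a step of 0.2. The rRNA median of -0.06 became -0.0945 at sites passed in both tissues, -0.0845 at sites passed in either, -0.028 against the median of the 7 other tissues, -0.0445 against seedling, -0.059 with adjacent sites in a run of T averaged, -0.0746 as a mean and -0.781 as log-odds. The tRNA median of -0.135 became -0.136 without sites at 0, -0.138 and -0.139 at sites passed in both and in either, -0.11 against the 7 other tissues, -0.125 against seedling, -0.133 with 1 value per anticodon and position, -0.147 as a mean and -1.49 as log-odds. The 63 rRNA sites lower in root became 33 against the 7 other tissues, 17 at a step of 0.2 and 98 at a step of 0.05. The 8 rRNA sites higher in root became 1 and 5 at sites passed in both and in either, 14 against the 7 other tissues and 3 at a step of 0.2. The 229 tRNA sites lower in root became 89 at a step of 0.2. The 15 higher became 0 at sites passed in both and 9 at a step of 0.2. Depth is unknown, so a value of 0 has no upper limit, and no value here has a replicate error.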

Other observations

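Grouped by anticodon and genome, all 36 groups with 4 or more listed tRNA sites had a median difference below 0. The widest were nuclear Ala-TGC, with -0.293 over 4 sites, nuclear Arg-TCG, with -0.246 over 4, nuclear Phe-GAA, with -0.241 over 4, and nuclear Thr-CGT, with -0.227 over 9. The narrowest were nuclear Ser-CGA, with -0.037 over 6, chloroplast Cys-GCA, with -0.045 over 4, and nuclear Ser-AGA, with -0.06 over 10. The groups mix positions and levels.

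The base next to a site went with the size of the rRNA difference. The median was -0.092 at 46 rRNA sites after a T and -0.076 at 35 after a G, with medians of -0.053 at 45 after an A and -0.032 at 51 after a C. The level of the sites moved with it, at 0.763 in root and 0.905 in shoot after a T and 0.138 in root and 0.127 in shoot after a C, and its part was not tested. In tRNA the 4 medians lay between -0.151 and -0.106.

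The chloroplast serine tRNA Ser-GGA-1-PT held sites on both sides. Table position 28 was 0.208 in root and 0.76 in shoot, and table position 33 (standard 32) was 0.691 in root and 0.934 in shoot. Table position 59 was 0.538 in root and 0.332 in shoot.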
